A study of Homo sapiens with 8 samples.

Results

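The genes described here encode matrix proteases, their inhibitors and the urokinase system, as 9 names: MMP7, MMP14, MMP15, TIMP1, TIMP2, TIMP3, PLAU, PLAUR and PLAT. They were taken by symbol from a table of 16782 genes measured in CAKI1, an established line of human renal carcinoma cells. Values were read for 7 of the 9, while MMP15 and TIMP3 were not analysed here. All samples were CAKI1 cells starved of serum for 24 h beforehand. The 4 hLcn-2 samples then received iron-bound (holo) lipocalin-2, an iron-carrying protein, at 5 µg/ml for 24 h, and the 4 control samples did not. Samples are numbered 1 to 4 in both groups, and the pairs given below join equal numbers.

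Matrix metalloproteinases (MMPs) are zinc-dependent enzymes that cut collagens, other matrix proteins and proteins of the cell surface, and tissue inhibitors of metalloproteinases (TIMPs) block their active site. Urokinase and tissue plasminogen activator turn plasminogen into plasmin, a serine protease that degrades fibrin and matrix proteins and can activate some pro-MMPs. The urokinase receptor concentrates this activity at the cell surface, where tumor cells use it during invasion.

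RNA was read at the 3′ end with unique molecular identifiers, so that 1 read stands for about 1 molecule of cDNA. Levels are the deposited normalized counts, which lie on the scale of CPM (reads scaled to a common library size) and were not divided by gene length, since each transcript gives about 1 read whatever its length. Depth was uneven, from 1501563 to 13953090 reads per library. Of the renal epithelial markers 10 of 11 were measured, with a summed level of 918 to 1069 in controls and of 944 to 1166 in hLcn-2 samples. The highest were CDH2 (311 to 591 over all libraries) and PAX8 (201 to 245). PAX2 (1.32 to 5.29) and CDH16 (1.58 to 10.8) were low. Of the fibroblast markers 2 of 8 were measured, COL1A1 and PDGFRB, and they summed to at most 6.58. CD14 was the one of 8 leukocyte markers with values (at most 1.59), and none of 6 endothelial markers had values. As bulk RNA was measured, a lower share of expressing cells and less RNA per cell cannot be told apart.

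The 7 genes covered a wide range of levels, and TIMP2 was the most abundant of them. Averaged over the 8 libraries, the normalized count was 570.0 for TIMP2, 104 for TIMP1, 65.7 for PLAUR, 63.6 for MMP14, 41.5 for PLAU, 17.2 for PLAT and 7.22 for MMP7. TIMP2 exceeded TIMP1 in 8 of 8 libraries, by 4.46- to 6.97-fold, and PLAT exceeded MMP7 in 8 of 8, by 1.12- to 6.78-fold. The neighbours in between were not separated beyond their spread: TIMP1 exceeded PLAUR in 7 libraries, PLAUR exceeded MMP14 in 4, MMP14 exceeded PLAU in 6 and PLAU exceeded PLAT in 6. TIMP2 lay at percentile 98.8 of the mean level among the 15593 genes tested, and MMP7 at percentile 37.0.

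**Figure D1:**
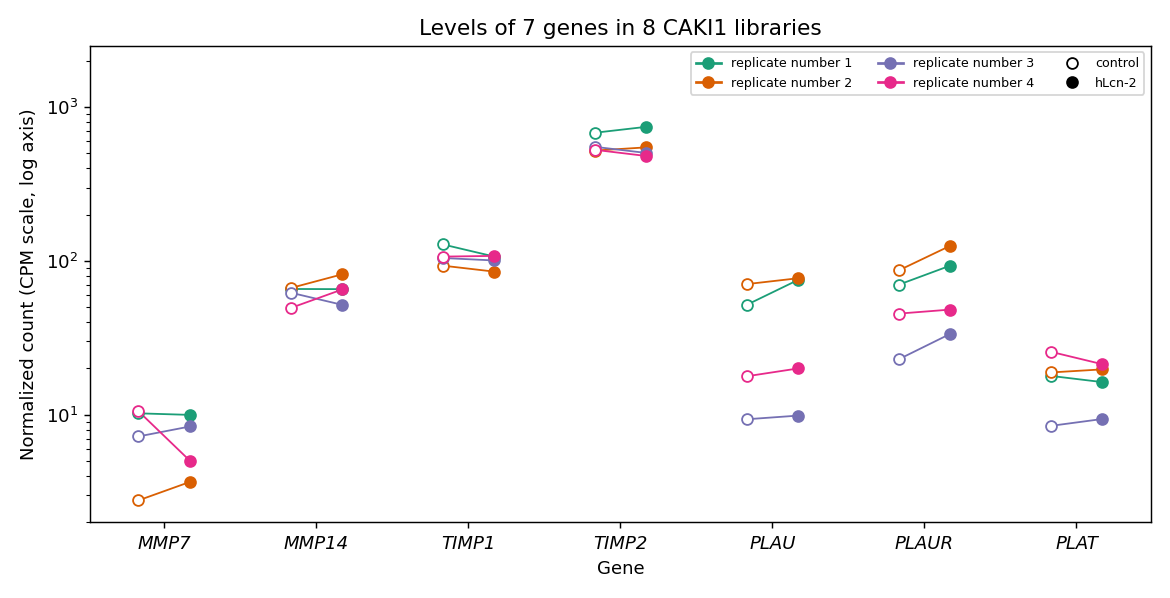
Normalized count (CPM scale, log axis) of 7 genes in 4 control (open) and 4 hLcn-2 (filled) libraries, with lines joining samples of the same number. Lines of PLAU and PLAUR go up in 4 of 4 pairs, and their spread between replicate numbers exceeds the step between groups.

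No gene of the group passed the test between hLcn-2 and control cells when all samples of a group were treated as replicates. Of the 7, 3 had a positive and 4 a negative log2 fold change, with a median of -0.02 beside 0.00083 for all genes tested. In limma (two-sided, Benjamini-Hochberg adjustment over all genes) 0 of 7 had an adjusted p under 0.05, beside 0 of 15593 genes (0%), and at an unadjusted p of 0.05 or less there were 0 of the 7 and 355 of all genes. The quasi-likelihood test of edgeR and DESeq2 on the recovered reads also called 0 genes without the replicate number, with 324 and 284 genes at an unadjusted p of 0.05 or less. In none of the 7 genes were the groups free of overlap, which held for 1.88% of all genes tested.

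Samples with the same number resembled each other, so the replicate number was also fitted as a block. This limma fit called 0 of the 7 genes (1 at an unadjusted p of 0.05 or less, as were 12.2% of all genes) and 0.282% of all genes. The smallest adjusted p of the group was 0.142, for PLAUR. The edgeR quasi-likelihood test with the block called 1 of the 7, again PLAUR, and 1.49% of all genes. DESeq2 with the block called 0 of the 6 to which it gave an adjusted p. It called 1.11% of all 15593 genes, a share that also counts genes left without an adjusted p. PLAU and PLAUR were the 2 genes higher in 4 of 4 pairs, a pattern shown by 9.93% of all genes, and 0 of the 7 were lower in 4 of 4, beside 10.9% of all genes. The labels do not say whether samples came from separate cultures, and p-values measure the spread between these samples, which may be technical.

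**Figure D2:**
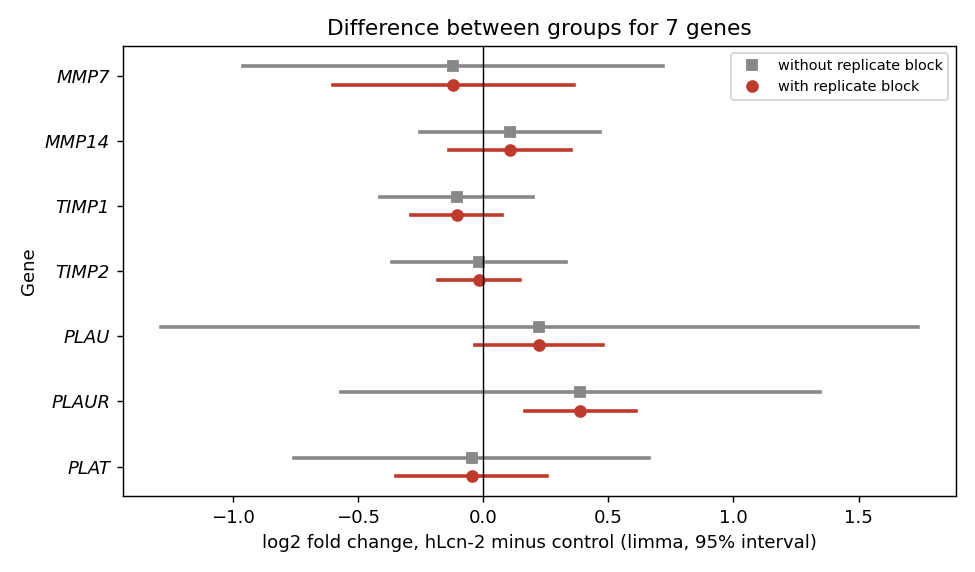
Log2 fold change (hLcn-2 minus control) from limma with its 95% confidence interval for 7 genes, without (grey squares) and with (red circles) the replicate number as a block. With the block the interval of PLAUR, from 0.17 to 0.61, is the one that lies above 0.

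MMP7 (matrilysin), a small secreted metalloproteinase without the hemopexin domain of most relatives, was the scarcest gene of the group. Its normalized counts were 10.2, 2.78, 7.23 and 10.5 in controls 1 to 4 and 9.98, 3.66, 8.39 and 5.00 in hLcn-2 samples 1 to 4. Both samples with the number 2 were lowest in their group, and the groups overlapped over nearly their whole range. The log2 fold change was -0.12 (SE 0.38, 95% confidence interval -0.96 to 0.72, limma, adjusted p = 1.0), an interval that spans both directions. On reads thinned to equal depth it was -0.32. Pair 4 alone differed by -0.94 on the log2 scale, where the control value rests on 16 reads and the hLcn-2 value on 23. Without both samples of that number the blocked log2 fold change turned to 0.16. MMP7 lies on the minus strand of GRCh38 at chr11:102520508-102530750, with 6 exons in its canonical transcript and no exon shared with another gene of GENCODE 44.

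MMP14 encodes MT1-MMP, the membrane-anchored collagenase that activates pro-MMP2 at the cell surface. Normalized counts were 65.7, 66.6, 62.2 and 49.4 in controls and 65.6, 81.8, 51.8 and 65.2 in hLcn-2 samples. The hLcn-2 values reached from near the lowest control to above the highest, with 2 of 4 pairs higher. The log2 fold change was 0.11 (SE 0.17, 95% confidence interval -0.25 to 0.47, limma, adjusted p = 1.0, exact permutation p = 0.486 over 70 regroupings). On reads thinned to equal depth it was 0.33. This gene (chr14:22836560-22849041, plus strand, 10 exons) was the one member in which the replicate number took a smaller share of the spread than in the median gene.

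Its substrate enzyme MMP2 (gelatinase A) was measured at 25.7, 19.3, 15.7 and 16.5 in controls and at 22.9, 14.7, 17.8 and 19.4 in hLcn-2 samples. MMP14 exceeded MMP2 in each library, by 2.56- to 5.59-fold, and TIMP2 exceeded MMP2 by 24.9- to 37.4-fold. MMP9 (gelatinase B) did not exceed 2.63 in any library, and MMP10 (stromelysin-2) stayed at or below 1.41. MMP16, another membrane-anchored MMP, was measured at 16.6 to 27.1 in controls and at 11.96 to 22.7 in hLcn-2 samples.

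TIMP1, a secreted inhibitor of most MMPs, had normalized counts of 128, 93.2, 105 and 107 in controls and of 107, 85.2, 101 and 108 in hLcn-2 samples. These are among the tightest values of the group, with a 1.504-fold range over all 8 libraries. The hLcn-2 sample was lower in 3 of 4 pairs, yet the log2 fold change of -0.11 (SE 0.14, 95% confidence interval -0.41 to 0.20) gave an adjusted p of 1.0 in limma and of 0.665 with the block. TIMP1 lies at chrX:47582408-47586789 on the plus strand, with 6 exons.

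TIMP2 inhibits MMPs as well, and at low amounts it links pro-MMP2 to MMP14 for activation. Normalized counts were 681, 522, 552 and 528 in controls and 745, 548, 504 and 481 in hLcn-2 samples. Both samples with the number 1 were the highest of their group, and the other 6 lay between 481 and 552. With the block its log2 fold change of -0.02 (SE 0.08) had the narrowest interval of the group in the same limma fit, from -0.18 to 0.15, a fold of 0.883 to 1.11 (adjusted p = 0.951). Between 802 and 9671 reads stood behind each value. TIMP2 lies at chr17:78852977-78925387 on the minus strand (5 exons), where 1 long non-coding RNA gene on the opposite strand overlaps its last exon and CEP295NL on the same strand overlaps another exon. Whether reads were counted by strand is not given in the sources used here.

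The ratios of TIMP2 and of TIMP1 to MMP14 did not separate the groups. TIMP2 stood at 10.4, 7.83, 8.88 and 10.7 times MMP14 in controls and at 11.4, 6.69, 9.71 and 7.38 times in hLcn-2 samples, higher in 2 of 4 pairs. For TIMP1 over MMP14 the ratio was 1.40 to 2.16 in controls and 1.04 to 1.94 in hLcn-2 samples. These are ratios of transcript levels, and whether either inhibitor acts on MMP14 in these cells was not tested.

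PLAUR encodes the urokinase receptor (uPAR), which is held in the membrane by a lipid anchor. Normalized counts were 70.01, 86.7, 22.9 and 45.4 in controls and 93.3, 126, 33.6 and 48.3 in hLcn-2 samples. Each hLcn-2 sample was above the control of its number, by 0.41, 0.53, 0.53 and 0.09 on the log2 scale, while the groups overlapped because the numbers differed more. Without the block the log2 fold change was 0.39 (SE 0.44, 95% confidence interval -0.57 to 1.34, limma, adjusted p = 1.0). With the block the SE was 0.10, the fold 1.31 (95% confidence interval 1.12 to 1.53) and the adjusted p 0.142 in limma. On reads thinned to equal depth the log2 fold change was 0.37, with an adjusted p of 0.373 in limma with the block.

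On the recovered reads the blocked edgeR quasi-likelihood test gave PLAUR a log2 fold change of 0.43 with an adjusted p of 0.0394, and DESeq2 with the block gave 0.41 with an adjusted p of 0.0751. The edgeR call was lost without number 1, 2 or 3 (adjusted p = 0.168, 0.383 and 0.132) and kept without number 4 (0.0194), an alternative chosen after seeing the data. PLAUR lies at chr19:43646095-43670547 on the minus strand, with 7 exons and no exon shared with another gene.

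PLAU encodes urokinase (uPA), the ligand of this receptor. Its normalized counts were 51.8, 70.7, 9.34 and 17.8 in controls and 75.4, 77.2, 9.87 and 20.0 in hLcn-2 samples. Samples 1 and 2 were high and samples 3 and 4 low in both groups, an 8.26-fold range over the 8 libraries. Within pairs the hLcn-2 sample was higher by 0.53, 0.13, 0.07 and 0.16 on the log2 scale. The log2 fold change of 0.22 had an SE of 0.69 without the block and of 0.12 with it (limma, adjusted p = 1.0 and 0.488), and the blocked edgeR test gave 0.30 (adjusted p = 0.240). On reads thinned to equal depth it was 0.08. Between 20 and 942 reads stood behind each value. PLAU lies at chr10:73909177-73917496 on the plus strand (11 exons), and the long non-coding gene C10orf55 overlaps its last exon on the opposite strand. How reads in this overlap were counted is not given in the sources used here.

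Promoter bases upstream of PLAU and PLAUR, which shared their pattern over the replicate numbers, are shown beside those of MMP7, which did not. They come from RefSeq (GRCh38.p14, 5′ to 3′ on the gene's strand), where 5 of the 7 genes could be used. TIMP2 and PLAT are not among these 5. Searched were the 200 bases from 250 to 51 before the start, on both strands, for the AP-1 motif TGANTCA, printed in capitals. AP-1, a dimer of Fos and Jun proteins, is a known regulator of several protease genes.
PLAU, downstream of 2 starts, chr10:73910882-73911081, plus strand: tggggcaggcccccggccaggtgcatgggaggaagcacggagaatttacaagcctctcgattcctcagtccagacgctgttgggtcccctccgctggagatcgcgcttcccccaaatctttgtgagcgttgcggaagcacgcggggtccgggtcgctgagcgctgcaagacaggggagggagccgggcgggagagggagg
PLAUR, 30 bases, chr19:43670337-43670366, minus strand: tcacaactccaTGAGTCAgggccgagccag
MMP7, chr11:102530798-102530997, minus strand: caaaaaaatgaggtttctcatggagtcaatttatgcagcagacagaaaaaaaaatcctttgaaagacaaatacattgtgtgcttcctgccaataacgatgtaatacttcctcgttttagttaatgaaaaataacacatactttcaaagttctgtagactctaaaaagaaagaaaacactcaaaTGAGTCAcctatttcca
The motif was matched in PLAUR, 186 to 180 bases before the start, and in MMP7, 67 to 61 before it. These are 2 of the 5 genes, which have 6 windows, as PLAU has 2 starts. Counted by window and not by gene, the motif was matched in 5.27% of 35116 promoter windows of the same length. The cAMP response element TGACGTCA (0.951% of windows) and TGATGNAA, a motif bound by ATF4 with C/EBP partners (2.50%), were matched in none of the 5 genes. ACGTG, the core of the hypoxia response element (14.4% of windows), was matched in MMP14 and TIMP1. The GC box GGGCGG (35.0% of windows) was matched in PLAU, MMP14 and TIMP1. No 2 matches overlapped, and they are letters in a window, not measured binding. In GENCODE 44 an exon of C10orf55 reaches into the PLAU window, and one of a PLAUR transcript into the PLAUR window.

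The spread between replicate numbers was larger than the difference between groups in all 7 genes. Of the sum of squares of the log2 values, the replicate number took 98.5% in PLAU, 97.3% in PLAT, 91.9% in PLAUR, 91.6% in TIMP2, 81.1% in MMP7, 78.3% in TIMP1 and 55.9% in MMP14. The median over all genes tested was 66.6%. The replicate number has more levels than the group, so on average it takes a larger share even where values vary at random. The group took at most 11.3%, in TIMP1, and 6.64% in PLAUR, beside a median of 6.15% over all genes. The log2 values of PLAU had an SD of 1.26 over the 8 libraries, above 99.9% of all genes tested, and those of PLAUR 0.81, above 98.1%.

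**Figure D3:**
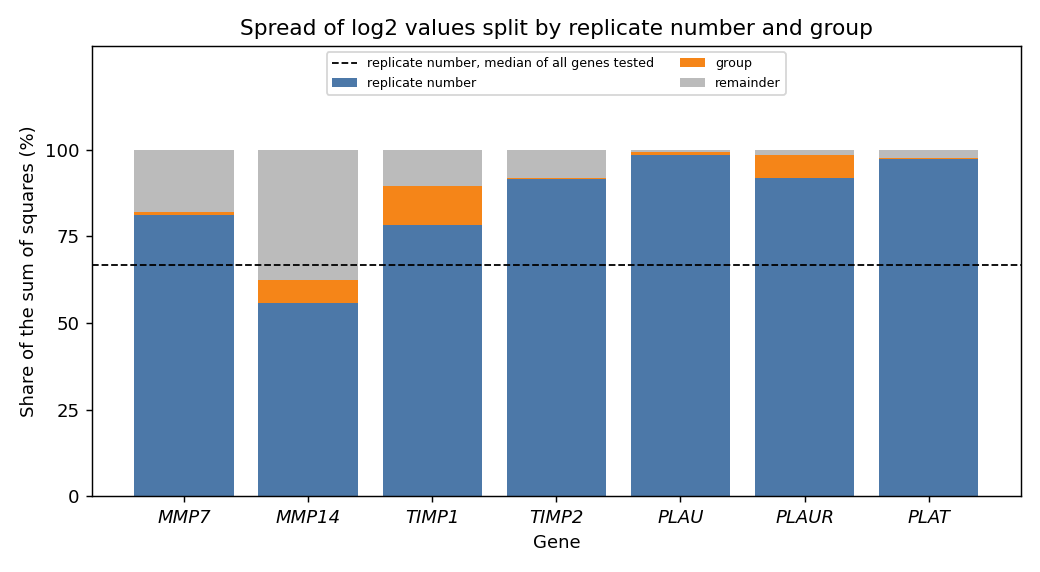
Share (%) of the sum of squares of log2(normalized count + 1) over 8 libraries taken by replicate number, by group and by the remainder, for 7 genes. The dashed line is the median share of the replicate number over all genes tested (66.6%), and 6 of the 7 genes lie above it.

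Urokinase and its receptor followed the replicate numbers together. In both PLAU and PLAUR number 3 was lowest and number 2 highest, in controls as in hLcn-2 samples. The ratio of PLAUR to PLAU ranged from 1.23 to 2.56 in controls and from 1.24 to 3.40 in hLcn-2 samples, higher with hLcn-2 in 2 of 4 pairs. What differs between the replicate numbers is not given by the labels. Samples 1 and 2, in which these genes were high, were also the deepest of each group (6972124 to 13953090 reads, beside 1501563 to 5799151 in samples 3 and 4), and the part of depth was not tested.

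**Figure D4:**
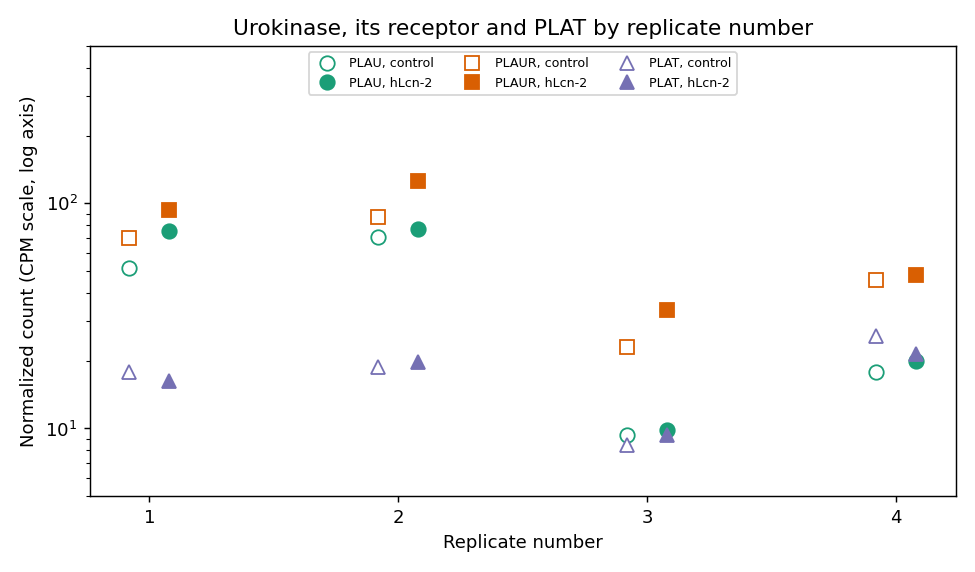
Normalized count (CPM scale, log axis) of PLAU, PLAUR and PLAT against replicate number in 4 control (open) and 4 hLcn-2 (filled) libraries. PLAU and PLAUR are highest at number 2 and PLAT at number 4, and all 3 genes are lowest at number 3.

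The genes whose log2 values, centred on their own mean, differed least from those of the 3 most abundant members were found over all genes tested. For PLAUR they included HMGB2, a chromatin protein, and CENPA, the centromeric histone, with root mean square differences of 0.14 and 0.20 over 8 libraries, beside a deviation of 0.75 of PLAUR itself. For TIMP2 they were GCNT3, MTMR4 and LUC7L2 (0.05 to 0.06, beside 0.21), and for TIMP1 they were MPC2, COX6B1 and NDUFB11 (0.04 to 0.06, beside 0.16). These are descriptions of 8 libraries that share their depth and their numbering.

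PLAT (chr8:42174718-42207709, minus strand, 14 exons) encodes tissue plasminogen activator (tPA), known above all from fibrinolysis. Normalized counts were 17.9, 18.8, 8.46 and 25.7 in controls and 16.3, 19.7, 9.38 and 21.3 in hLcn-2 samples. Number 3 was again lowest, but here number 4 was highest in both groups, unlike in PLAU. The log2 fold change was -0.05 (SE 0.33, 95% confidence interval -0.76 to 0.66, limma, adjusted p = 1.0), and -0.35 to 0.25 was the interval with the block. On reads thinned to equal depth the log2 fold change turned to 0.22. PLAU exceeded PLAT by 2.89- to 4.62-fold in samples 1 and 2, whereas the ratio was 0.692 to 1.10 in samples 3 and 4.

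The other genes of pericellular proteolysis were taken from 5 lists with 79 names, of which 50 were measured and 46 tested. Limma called 0 of the 46, with 1 at an unadjusted p of 0.05 or less without the block (2.28% of all genes) and 8 with it (12.2% of all genes). Of the 46, 28 had a positive and 18 a negative log2 fold change (median 0.05, beside -0.02 for the 7 members). The blocked edgeR test called 3 (1.49% of all genes), all higher: ADAM9, CTSL and LGMN. LGMN was singled out after its values were seen. Without number 1, 2 or 3 the same test called 0 of the 46, and without number 4 it called CTSL and LGMN, an alternative chosen after seeing the data. In 7 of the 46 the hLcn-2 sample was higher in 4 of 4 pairs and in 4 it was lower, beside 9.93% and 10.9% of all genes.

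By list, 0 of 3 tested further MMPs were called by any of these 3 fits. Among 16 ADAM and ADAMTS proteases 1 was called by the blocked edgeR test (beside 1.49% of all genes), namely ADAM9, a membrane-bound sheddase. It stood at 153, 198, 198 and 139 in controls and at 268, 228, 237 and 182 in hLcn-2 samples, a blocked fold of 1.33 (95% confidence interval 1.15 to 1.54, adjusted p = 0.102 in limma, 0.0304 in edgeR and 0.0279 in DESeq2). ADAM10, ADAMTS1 and ADAM12 were not called, and ADAM12 followed the replicate numbers with 25.9 and 31.1 at number 3 and 67.8 to 92.3 elsewhere.

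Of the 5 regulators of metalloproteases tested, which include the activating protease FURIN, the MMP inducer BSG (basigin), the proprotein convertase PCSK5 and the membrane inhibitor RECK, 0 were called. Of 9 plasminogen system partners 0 were called, and 4 had a positive and 5 a negative log2 fold change. ENO1, ANXA2 and S100A10, which serve as plasminogen receptors or parts of them at the cell surface, had log2 fold changes of -0.20, -0.11 and -0.13, and SERPINE2 (protease nexin 1) one of 0.13. PLG, the gene of plasminogen itself, was not analysed here.

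Of 13 cathepsins, membrane serine proteases and inhibitors 2 were called by the blocked edgeR test, beside 1.49% of all genes. CTSL, the lysosomal and secreted cathepsin L, stood at 263, 281, 302 and 212 in controls and at 345, 364, 392 and 227 in hLcn-2 samples (adjusted p = 0.124 in limma, 0.0468 in edgeR and 0.0532 in DESeq2, each with the block). LGMN, the asparaginyl endopeptidase legumain, had a blocked fold of 1.34 (95% confidence interval 1.14 to 1.58, adjusted p = 0.139 in limma, 0.0383 in edgeR and 0.0583 in DESeq2, each with the block). CTSD, CTSB and CSTB were not called, with log2 fold changes of 0.08, -0.10 and -0.15.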

How the data were processed

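CAKI1 RNA was prepared as QuantSeq 3′ libraries with UMI. Per the labels and the methods, the authors aligned reads to GRCh38 with STAR and counted them with HTSeq. The deposited values are a scaled signal, normalized counts as CPM of an adjusted library size. All 134256 values were whole multiples of the worth of 1 read (tolerance 0.01), which gave whole reads per gene. One cell held a decimal comma. For counting error a floor of 3 reads was chosen, between 0.211 and 1.98 on the CPM scale.

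Limma 3.58.1 (R 4.3.3, intensity trend) was run on log2(normalized count + 1), on which changes of low genes are understated, for 15593 genes reaching 1 CPM in 2 or more samples. Genes called had an adjusted p under 0.05 (Benjamini-Hochberg). Planned for normalized values, limma was kept as main test, and the recovered reads were tested with DESeq2 1.42.0 and edgeR 4.0.16 as alternatives. All tests were two-sided, and models were tested on simulated data. Exact permutation tests over 70 regroupings cannot go below p = 0.0286.

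Same-numbered samples deviated together from their group means (correlations across genes of 0.312 to 0.610), so pairs were taken from the numbers in the labels. Members and lists were chosen with earlier results of these data known. Named are all members, up to 4 genes per list by call or mean level, some genes for their known roles, and the 3 genes most alike to each of the 3 most abundant members. One gene that this rule names is not reported here. Alternatives were pseudocount, filter, normalization, trend, block, tool, thinning and left-out samples.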

Additional observations from a re-analysis of the deposited data

Results flagged for a closer look

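Among the 7 members and the further genes named by rule, 54 groups of 4 samples were examined for a single sample far from the other 3, and 3 were found where chance gives about 2.70. No member was among them. ADAM12 in hLcn-2 replicate 3 stood at 31.1, with a gap to the nearest sample of 0.853 of the group's range. RECK in control replicate 4 stood at 7.24 (0.8833 of the range), in the shallowest library. FURIN in control replicate 2 stood at 20.6 (0.8474 of the range).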

How the results depend on the processing

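Of 209 alternative values of the members' fold changes, 183 kept their direction and their side of the threshold, 24 changed sign, and PLAUR passed the threshold in the other 2, both from edgeR with the block. Among fits to all 8 samples, TIMP2 turned to 0.00626 with edgeR, and PLAT to 0.217 with thinned reads, with or without the replicate block, where PLAU moved to 0.0792, MMP14 to 0.327 and MMP7 to -0.318. The block called 44 genes in limma, 233 in edgeR, 173 in DESeq2 and 23 on thinned reads, beside 0 without it. Of the 7 members edgeR with the block called 1 (PLAUR), and of the 46 partners it called 3. DESeq2 with the block called 1 of the 35 partners to which it gave an adjusted p. Apart from these, the block changed no call among members and partners in fits to all samples. With samples left out, the count of all genes called ranged from 0 to 221, of members from 0 to 1 and of partners from 0 to 2. Without number 1, 2, 3 or 4 the block in limma called 14, 3, 0 and 58 genes. With single libraries left out and no block, which breaks a pair, the log2 fold changes ranged from -0.478 to 0.098 for MMP7, from -0.000917 to 0.215 for MMP14, from -0.174 to -0.0225 for TIMP1, from -0.153 to 0.0705 for TIMP2, from -0.277 to 0.774 for PLAU, from 0.0217 to 0.708 for PLAUR and from -0.344 to 0.19 for PLAT. With both samples of a number left out under the block (limma or edgeR), they ranged from -0.261 to 0.155, 0.0103 to 0.228, -0.147 to -0.0552, -0.0657 to 0.0423, 0.12 to 0.393, 0.341 to 0.5 and -0.113 to 0.0235 in the same order. Without the block, PLAU fell below 0 without control replicate 3, hLcn-2 replicate 1 or hLcn-2 replicate 2 (-0.277, -0.163 and -0.175). The cause of these changes was not tested. The mean filter of 10 CPM left no value for MMP7. Depth limits MMP7, PLAU and PLAT most, with 16 to 20 reads in their lowest library.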
